A study of Mus musculus with 46 samples.

Results

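The cerebral cortex of 8 R6/2 mice given the compound CHDI-00340246 was compared with the cortex of 8 wild-type (WT) mice given vehicle, over all genes expressed in the tissue. These 16 RNA sequencing libraries, 1 per animal, were taken from a series of 46 libraries that also covers the striatum and a group of R6/2 mice given vehicle. Members were chosen by the labelled tissue, genotype and treatment alone, and of the 43346 genes with deposited values, 17484 passed the filter on low counts. The mice were on a C57BL6/J background and 12 weeks old, and the R6/2 line carries Tg(HDexon1)62Gpb. All R6/2 animals of this comparison received 30 mg/kg of the compound by mouth 2 times a day from 4 to 12 weeks of age, and the WT animals received the vehicle, hydroxypropyl-β-cyclodextrin in citrate buffer, over the same weeks. Each group held 4 females and 4 males. No WT mouse received the compound, so genotype and compound differ together between the groups and cannot be told apart by this comparison. The 7 R6/2 mice given vehicle, 4 females and 3 males, are shown beside the treated group so that the treated animals can be read as a further set of R6/2 mice.

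R6/2 mice carry a transgene with exon 1 of the human huntingtin gene, an expanded CAG repeat and the human promoter, and are a rapid model of Huntington's disease, in which striatum and cortex lose normal gene expression before many neurons die. CHDI-00340246 inhibits kynurenine 3-monooxygenase (KMO), the enzyme that turns kynurenine, a product of tryptophan breakdown, into 3-hydroxykynurenine. In brain this enzyme is found mainly in microglia. The cortex holds glutamatergic projection neurons, several classes of GABA interneurons, and glia.

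Cortex libraries held between 31.8 and 37.8 M counts, with M for 1e6. Values are given as CPM, counts per 1e6 counts of a library after TMM scaling, and fold changes as log2 ± standard error (SE), treated R6/2 minus WT. On the first principal component of the 23 cortex libraries, with 27.6% of the variance, the 8 WT libraries lay between 28.6 and 37.5 and all 15 R6/2 libraries between -23.2 and -12.6. The labelled genotype was checked with Gm12695, a gene at the known R6/2 insertion site on mouse chromosome 4, which was at most 0.114 CPM in WT, at least 2.97 CPM in treated R6/2 and at least 2.53 CPM in vehicle R6/2. Mouse Htt is no check of the human transgene and ran from 194 to 248 CPM in WT and from 208 to 292 CPM in treated R6/2 (log2 0.15 ± 0.07, adjusted p = 0.0912; 0.0311 without treated male 3). The labelled sexes separated by Xist, with 738 CPM or more in females and 2.86 CPM or less in males. Kmo, which encodes the target of the compound, had between 1 and 8 counts in each cortex library and was not tested. The library names carry a run tag, and treated R6/2 libraries carry L5 or L6 while WT libraries carry L7 or L8, so that run tag and group cannot be told apart without the vehicle R6/2 libraries, which carry all 4 tags. On principal component 3 (9.4% of the variance) treated females 1, 3 and 4 lay between -24.6 and -21.5, and vehicle female 1 at -27.6. The 4 treated males lay at the other end, between 14.5 and 21.9, and treated female 2 at 0.38. Within the treated group this component thus ran largely along sex. Nothing in the labels used here states littermate or cage, so p-values measure the spread between these animals. Some animal names share a stem, within WT and between groups. What a stem marks is not stated, and the stems were not part of any fit.

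**Figure D1:**
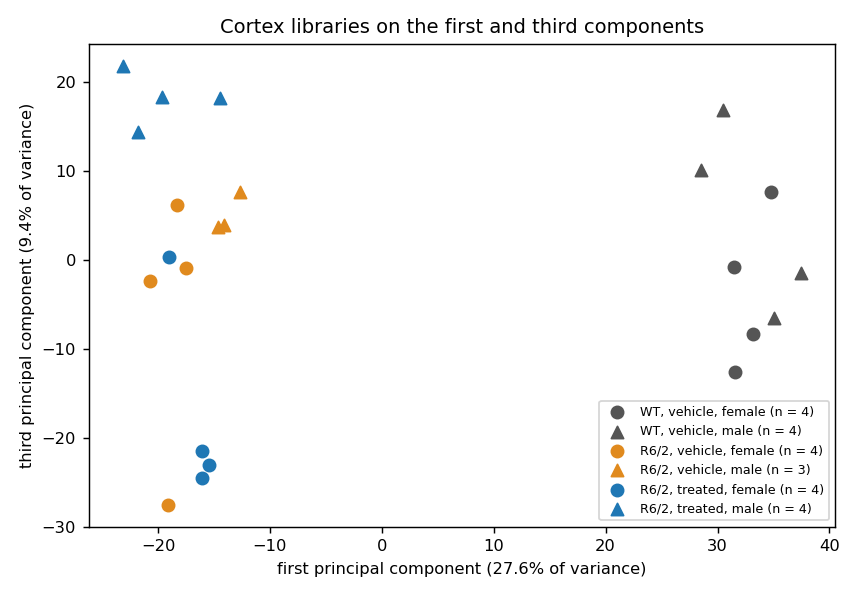
Cortex libraries on principal components 1 and 3 of log2 CPM, in component units, 1 point per animal, coloured by group and shaped by sex. WT lies between 28.6 and 37.5 on the first component and both R6/2 groups between -23.2 and -12.6, and 3 treated females lie below -21 on component 3.

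A total of 8164 genes differed between treated R6/2 and WT cortex (46.7% of those tested), called at an adjusted p under 0.05 by edgeR's quasi-likelihood test with Benjamini-Hochberg adjustment. Of all genes tested 22.8% were called higher (3988 genes) and 23.9% lower (4176 genes). Decreases were the larger changes: 674 genes were lower by 2-fold or more (16.1% of the lower calls) and 234 were higher by 2-fold or more (5.87% of the higher calls). Many calls were small, with 2560 of them under 1.2-fold and a median absolute log2 fold change of 0.367. For 2963 genes (16.9%) the 8 treated values and the 8 WT values did not overlap. With the run tag as a covariate, which estimates the difference through the vehicle libraries, 4062 genes were called; 3812 of them were among the 8164 and changed in the same direction, and none changed in the opposite one. On the deposited FPKM values (log2 with 0.1 added, limma) 8932 genes were called and the split shifted from 51.2% lower to 34.5% lower, with 5848 higher and 3084 lower. In bulk tissue, fewer cells of a type and less RNA per cell cannot be told apart, and this holds for every cell type marker below. The median log2 fold change ran from -0.0336 in the fifth of genes with the fewest exon bases to 0.0461 in the fifth with the most, and the part of transcript length in the calls was not tested.

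Among the tested genes of 33 lists of pathway and cell type genes, 108 were called higher and 315 lower (59.7% called in all, beside 46.7% of all genes). The lists were chosen for this tissue and disease and with earlier results of these data known, so their shares describe these genes only.

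**Figure D2:**
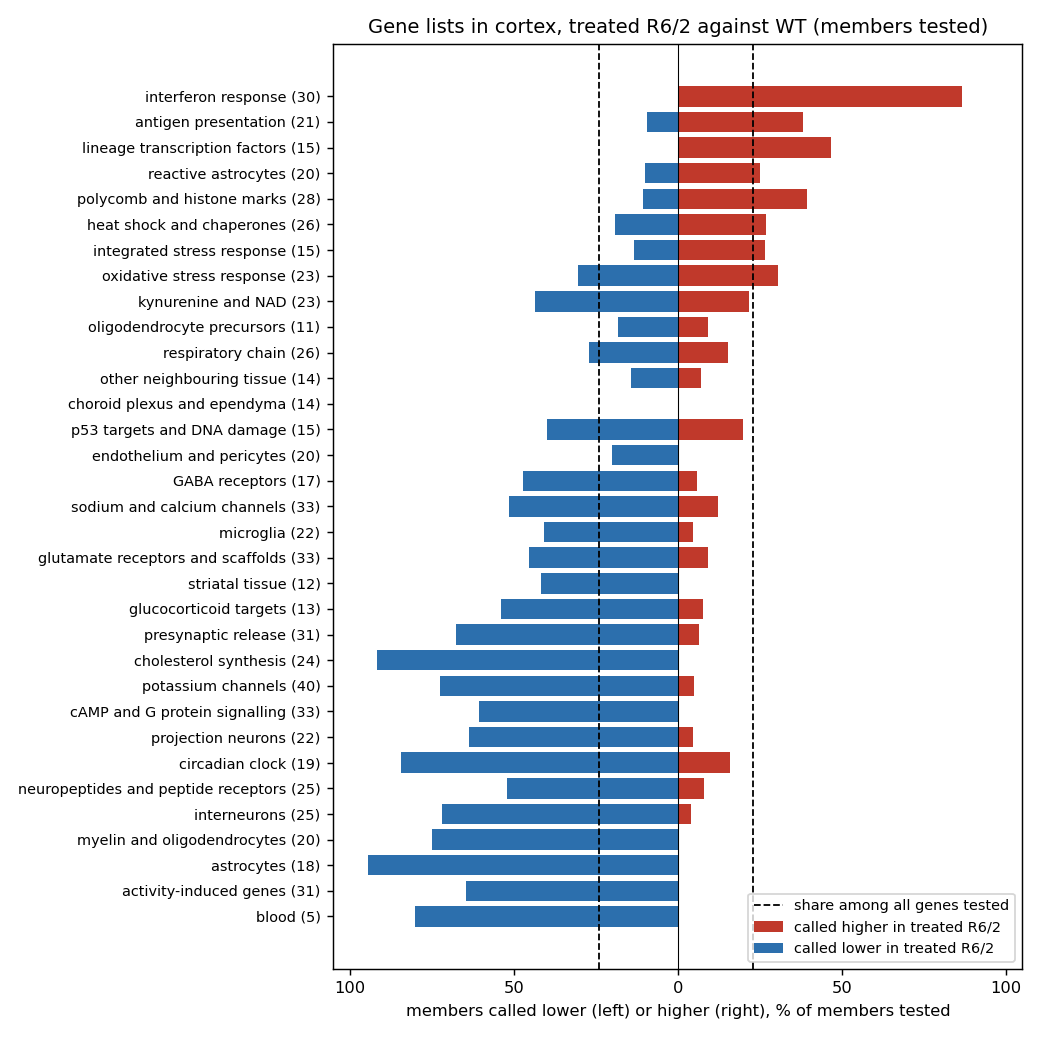
Members of each list called higher (right, red) or lower (left, blue) in treated R6/2 cortex, as a percent of the members tested, whose number is in brackets; dashed lines are the shares among all genes tested, 22.8% higher and 23.9% lower. Interferon response genes extend furthest to the right, with 26 of 30 higher, and astrocyte genes furthest to the left, with 17 of 18 lower.

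Predicted gene models were left out of the largest changes, which passed over 1 model among the increases, Gm12695 at the transgene insertion site (log2 6.25), and 3 among the decreases. Of the 10 largest increases in the remaining genes, 6 were in genes of developmental transcription factors that stood at or below 5.30 CPM in WT cortex. Pou4f1, on chromosome 14, encodes a POU homeodomain protein known from sensory ganglia and had a lowest, median and highest value of 0.0283, 0.0903 and 0.153 CPM in WT and of 2.31, 3.69 and 4.68 CPM in treated R6/2. The groups stood far apart, by 38.3-fold (log2 5.26 ± 0.24, adjusted p = 6.84e-14), and vehicle R6/2 averaged 4.02 CPM. Pax2, a paired-box factor of the developing kidney and hindbrain, went from a WT median of 0.202 CPM (0.113 to 0.411) to 2.82 CPM (1.33 to 4.24; log2 3.65 ± 0.27, adjusted p = 3.08e-10). Twist1, a mesenchymal factor, went from 0.246 CPM (0.177 to 0.656) to 3.06 CPM (1.53 to 3.83; log2 3.25 ± 0.22, adjusted p = 4.71e-11). None of these groups overlapped, as the choice of the 10 required. Genes this low in WT, Pou4f1 among them, passed the filter on low counts through their level in R6/2, so such genes had to differ. The homeobox gene Shox2 was at or below 0.229 CPM in WT and between 0.637 and 1.246 CPM in treated R6/2 (log2 3.94 ± 0.34), a value that grew to 4.601 without WT female 4. Onecut2, a homeobox factor, was the most abundant of this group, with a median of 4.56 CPM in WT (3.09 to 5.30) and 19.2 CPM in treated R6/2 (16.9 to 24.1; log2 2.19 ± 0.11, adjusted p = 3.98e-13). Sox3, a factor of neural progenitors, rose by 2.15 ± 0.16. The other genes among the 10 largest increases were Rgs13, a regulator of G protein signalling (log2 3.98 ± 0.30), the long noncoding RNA Crnde (2.58 ± 0.25), Nnmt, which methylates nicotinamide (2.39 ± 0.32), and Sostdc1, a secreted inhibitor of bone morphogenetic protein signalling (2.35 ± 0.31).

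The list of lineage transcription factors held 30 genes of early development, of which 15 were tested; 7 were called higher and none lower, with a median log2 fold change of 0.41. The other 15 had too few counts to be tested, and a gene that passed only through its level in R6/2 had to differ, so this count is no measure of the whole list. Onecut1, close kin of Onecut2, had a median of 0.0281 CPM in WT and of 0.606 CPM in treated R6/2 (log2 3.47 ± 0.52, adjusted p = 8.51e-06). Polycomb complexes repress such developmental genes, and of 28 tested genes of polycomb and histone marks 11 were called higher and 3 lower (median 0.10). Cbx8, a chromobox subunit of polycomb complex 1, rose from a median of 8.37 to 13 CPM (log2 0.62 ± 0.09), and Bmi1, a ring finger subunit, rose from 51.2 to 69.2 CPM (0.42 ± 0.05). Neither gene overlapped between groups, and 7 of the 28 were called without overlap, beside 16.9% of all genes without overlap. With the run tag as a covariate 4 members of that list were called higher and Cbx8 was not called (adjusted p = 0.0696).

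The 10 largest decreases, predicted gene models left out, were in genes whose WT median was at most 17.7 CPM. Arr3, which encodes the arrestin of cone photoreceptors and lies on the X chromosome, had a lowest, median and highest value of 1.49, 1.96 and 2.56 CPM in WT and of 0, 0.0428 and 0.112 CPM in treated R6/2. The fall was 39.7-fold (log2 -5.31 ± 0.32, adjusted p = 1.21e-11). Alox12b, a lipoxygenase best known from skin, went from a WT median of 6.51 CPM (5.18 to 8.37) to 0.358 CPM (0.197 to 0.473; log2 -4.24 ± 0.18, adjusted p = 3.44e-14). Plk5, a polo-like kinase of the brain, went from 17.7 CPM (15.8 to 34.1) to 1.95 CPM (0.994 to 2.26; log2 -3.53 ± 0.30, adjusted p = 2.43e-09). Every treated value of these genes lay below every WT value, as the choice of the 10 required. Rspo1, a secreted amplifier of Wnt signalling, fell from a median of 14.9 to 1.41 CPM (log2 -3.36 ± 0.18), and Adam33, a membrane metalloprotease, from 13.7 to 1.16 CPM (-3.44 ± 0.27). Others among the 10 were Erfe, the hormone erythroferrone (-4.42 ± 0.47), Myhas (-4.05 ± 0.39), Dgat2l6, of the acyltransferase family (-3.59 ± 0.37), and Sytl1, a synaptotagmin-like protein (-3.56 ± 0.41). With the run tag as a covariate Erfe (-1.27, adjusted p = 0.756) and Dgat2l6 (-2.71, adjusted p = 0.0855) were not called, and the other 8 were.

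**Figure D3:**
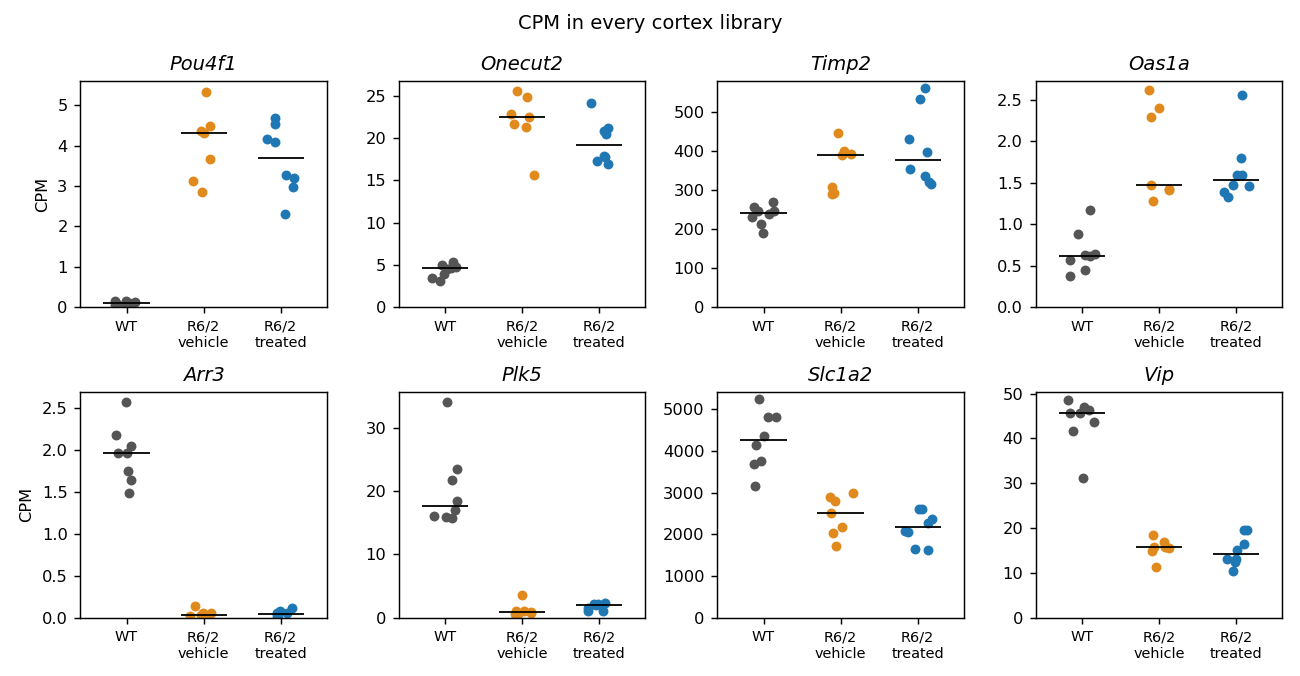
CPM in each of the 23 cortex libraries for 4 genes higher and 4 genes lower in treated R6/2 than in WT; points are animals, horizontal lines are group medians and each axis starts at 0. The treated values of each gene lie on one side of all WT values, a condition of choice for all but Oas1a and Vip. Vehicle R6/2 values lie beside the treated ones.

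The most abundant genes that fell by 1.5-fold or more without overlap belonged to synapses, astrocytes and myelin. Slc1a2, the main astrocytic glutamate transporter, ran from 3162 to 5242 CPM in WT (median 4263) and from 1623 to 2618 CPM in treated R6/2 (median 2173; log2 -0.97 ± 0.13, adjusted p = 1.37e-06). Camk2a, the alpha subunit of the kinase CaMKII, ran from 3628 to 4769 CPM in WT and from 1963 to 2322 CPM in treated R6/2 (log2 -0.99 ± 0.06, adjusted p = 4.9e-12). Snap25, of the vesicle fusion machinery, had medians of 3329 and 1832 CPM (-0.90 ± 0.07). Mbp, myelin basic protein, had medians of 2474 and 1718 CPM (-0.62 ± 0.12). The most abundant genes that rose this far were Timp2, an inhibitor of metalloproteinases (medians 242 and 377 CPM; log2 0.78 ± 0.12), Gaa, the lysosomal alpha-glucosidase (209 and 342 CPM; 0.67 ± 0.06), Usp48, a deubiquitinating enzyme (162 and 238 CPM; 0.59 ± 0.08), Gprasp2, which sorts G protein-coupled receptors (138 and 224 CPM; 0.71 ± 0.06), and Tmem130 (138 and 194 CPM; 0.59 ± 0.09).

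Most markers of interneurons and of projection neurons were lower. Of 25 interneuron genes 18 were called lower and 1 higher, with a median log2 fold change of -0.58, and of 22 projection neuron genes 14 were called lower and 1 higher, with a median of -0.47; the median of all genes was 0.00. Lamp5, a marker of neurogliaform interneurons and of upper-layer neurons, had the deepest fall: its lowest, median and highest values were 226, 289 and 324 CPM in WT and 23.3, 38.7 and 73.0 CPM in treated R6/2 (log2 -2.69 ± 0.17, adjusted p = 2.44e-11). Vip, the peptide of another interneuron class, had a median of 45.7 CPM in WT (31.2 to 48.5) and 14.2 CPM in treated R6/2 (10.5 to 19.6; -1.54 ± 0.12). Pvalb, the calcium buffer of fast-spiking cells, had medians of 75.1 and 31.98 CPM (-1.31 ± 0.16), and Crh, corticotropin-releasing hormone, of 3.63 and 0.897 CPM (-1.96 ± 0.22). The values of these 4 genes, named for the largest changes of the list, did not overlap between groups. In all, 15 of the 25 members were called without overlap, beside 16.9% of all genes without overlap. Gad1, which makes GABA, fell from a median of 441 to 200.1 CPM (-1.09 ± 0.08), and Slc32a1, which loads GABA into vesicles, was not called (-0.18, adjusted p = 0.16).

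Among projection neuron genes the deepest falls were in genes of both deep and upper layers. Pcp4, a calmodulin regulator of deep layers, had a median of 170 CPM in WT (148 to 192) and 72.0 CPM in treated R6/2 (55.0 to 85.6; log2 -1.26 ± 0.08, adjusted p = 3.83e-11). Rasgrf2, an exchange factor of upper layers, had medians of 266 and 127 CPM (-1.08 ± 0.06), Nrn1, a neurite growth protein, of 228 and 99.5 CPM (-1.14 ± 0.09), and Ccn2, a secreted protein of the deepest layer, of 28.0 and 11.9 CPM (-1.23 ± 0.14). No treated value of these 4 genes, named for the largest changes of the list, reached a WT value. Of the 22 members 8 were called without overlap, beside 16.9% of all genes without overlap. Tbr1, a defining gene of layer 6, stayed readily detected and fell from a median of 163 to 117 CPM (-0.49 ± 0.06).

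Ion channel genes were lower in large numbers. Of 40 potassium channel genes 29 were called lower and 2 higher (median log2 fold change -0.45); with the run tag as a covariate 18 were called lower. Kcnh4 had a WT median of 28.1 CPM (25.4 to 41.2) and a treated median of 4.02 CPM (2.86 to 5.88; -2.82 ± 0.21, adjusted p = 2.1e-10). Kcnab3, a beta subunit, fell from 116 to 42.1 CPM (-1.58 ± 0.14), and Kcnip2, a partner of A-type channels, from 168 to 61.1 CPM (-1.44 ± 0.09). Of 33 sodium and calcium channel genes 17 were lower and 4 higher (median -0.20). Scn4b, a sodium channel subunit that aids rapid repeated firing, ran from 135 to 183 CPM in WT and from 8.62 to 27.5 CPM in treated R6/2, an 8.05-fold fall (-3.01 ± 0.18, adjusted p = 1.29e-11). Ryr1, a calcium release channel, fell from a median of 21.8 to 4.50 CPM (-2.35 ± 0.17). None of these 5 genes, named for the largest changes of their lists, overlapped between groups. Among potassium channel genes 17 of 40 were called without overlap, and among sodium and calcium channel genes 12 of 33. The share without overlap among all genes was 16.9%.

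Receptor genes changed in part. Of 33 genes of glutamate receptors and scaffolds 15 were called lower and 3 higher (median -0.22), and of 17 GABA receptor genes 8 were lower and 1 higher (median -0.16). The metabotropic receptors Grm2 (medians 48.0 and 20.8 CPM; log2 -1.24 ± 0.11) and Grm3 (55.0 and 27.2 CPM; -1.11 ± 0.11) fell without overlap, and Grm4 fell with overlap (-1.10 ± 0.20; not called with the run tag, adjusted p = 0.18). Gabrd, the delta subunit of extrasynaptic GABA receptors, ran from 78.2 to 98.8 CPM in WT and from 13.4 to 28.2 CPM in treated R6/2 (-2.01 ± 0.12, adjusted p = 5.64e-12) without overlap. The synaptic subunit Gabrb2 fell with overlap (-0.33 ± 0.11; not called with the run tag, adjusted p = 0.38). Gabrq, the theta subunit, was the member called higher (medians 0.773 and 1.93 CPM; 1.79 ± 0.43, and 1.26 without treated male 1, which was at 8.70 CPM). Of 31 genes of presynaptic release 21 were lower and 2 higher (median -0.40), among them Vamp1, a vesicle fusion protein, with medians of 254 and 91.8 CPM (-1.51 ± 0.09), and Rph3a, a Rab3 effector, with 533 and 197 CPM (-1.29 ± 0.10). Of 25 genes of neuropeptides and their receptors 13 were lower and 2 higher (median -0.57). Pdyn, the precursor of dynorphin, had a median of 25.4 CPM in WT (23.0 to 28.0) and 5.97 CPM in treated R6/2 (3.83 to 11.1; -1.94 ± 0.17), and Cckbr, the cortical cholecystokinin receptor, fell from 69.3 to 28.4 CPM (-1.33 ± 0.12). Of 33 genes of cAMP and G protein signalling 20 were lower and none higher (median -0.46). Rgs4, which shortens G protein signals, fell from 553 to 209 CPM (-1.38 ± 0.10).

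Genes that neurons switch on with activity were lower. Of 31 tested members 20 were called lower and none higher, with a median log2 fold change of -0.78. Egr2, a zinc finger factor, had lowest, median and highest values of 1.36, 6.12 and 18.3 CPM in WT and of 0.256, 0.467 and 1.84 CPM in treated R6/2 (log2 -3.23 ± 0.44, adjusted p = 2.16e-06). Arc, which acts at the postsynaptic site, ran from 77.8 to 299 CPM and from 17.8 to 115 CPM (-1.93 ± 0.32, adjusted p = 2.6e-05). Both ranges overlapped, and both genes varied widely within WT. Homer1, a postsynaptic scaffold, fell without overlap from 142 to 301 CPM in WT to 69.2 to 101 CPM in treated R6/2 (-1.35 ± 0.14), as did Fosl2 (-1.40 ± 0.16). Fosb and Jun were not called (0.13, adjusted p = 0.766, and 0.06, adjusted p = 0.767).

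Many activity-induced genes respond to the factor CREB through the cAMP response element TGACGTCA. RefSeq promoter windows (GRCm38.p6, 250 bases before to 50 bases after a transcript start) were available for 13 of the 20 members called lower. This motif, read on both strands, was in a window of 1 member, Dusp1. It was in 1.79% of all 32851 windows and in 2.03% of the 27025 genes with a window. Dusp1, a phosphatase of MAP kinases, had a median of 26.9 CPM in WT (16.5 to 43.0) and 11.5 CPM in treated R6/2 (9.46 to 18.03; log2 -1.12 ± 0.15, adjusted p = 1.9e-06). Its window, chr17:26508423-26508722 on the minus strand, is shown with the motif in capitals, starting 143 bases before the start.
Dusp1: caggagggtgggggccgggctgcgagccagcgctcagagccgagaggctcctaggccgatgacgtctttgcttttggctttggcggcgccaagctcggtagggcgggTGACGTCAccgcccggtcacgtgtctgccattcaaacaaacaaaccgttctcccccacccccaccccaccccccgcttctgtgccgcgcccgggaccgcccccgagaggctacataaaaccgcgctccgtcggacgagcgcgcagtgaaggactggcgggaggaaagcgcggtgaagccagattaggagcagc

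Most interferon response genes were higher. Type I interferons act through transcription factors, IRF9 among them, that bind the interferon-stimulated response element and raise antiviral genes; in brain, microglia, astrocytes and neurons can all respond. Of 30 members 26 were called higher and none lower, with a median log2 fold change of 0.75, and in 8 of the 26 the groups did not overlap, beside 2962 of the 8164 genes called in all. With the run tag as a covariate 20 were called higher. Irf7, the factor that amplifies the response, had lowest, median and highest values of 1.14, 1.58 and 3.38 CPM in WT and of 4.55, 6.74 and 7.94 CPM in treated R6/2 (log2 1.84 ± 0.20, adjusted p = 1.42e-07). Its groups did not overlap, and WT female 2 was the highest WT library. Usp18, a brake on the receptor, was 0.801 CPM in the median WT library (0.538 to 2.18) and 3.02 CPM in the median treated one (2.10 to 4.35; 1.82 ± 0.25, adjusted p = 2.69e-06). Oasl2, of the oligoadenylate synthetase family, had medians of 2.41 and 9.04 CPM (1.70 ± 0.23), and Ifi44 of 0.617 and 2.65 CPM (1.91 ± 0.31). Among the signalling factors Irf9 rose (0.47 ± 0.06), and Stat2 was not called (-0.09, adjusted p = 0.13). The groups of Usp18, Oasl2 and Ifi44 overlapped, and WT female 2 was the highest WT library of each.

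Promoter windows were available for 19 of the 26 members called higher. Of these, 9 held an interferon-stimulated response element, beside 3.99% of genes with a window. It was read as GAAA, any 2 bases and GAAA again on either strand. The 9 were Oas1a, Ifit1, Bst2, Rsad2, Ifit3, Ddx58, Gbp3, Isg15 and Ifih1. Oas1a, which makes the second messenger of RNase L, had the largest change of these: its median was 0.618 CPM in WT (0.372 to 1.17) and 1.53 CPM in treated R6/2 (1.33 to 2.56; log2 1.31 ± 0.22, adjusted p = 2.7e-05), without overlap. It belongs to a family of near-identical copies, among which the authors' estimated counts could split reads. Its window, chr5:120907476-120907775 on the minus strand, is shown with 2 overlapping matches in capitals, which start 20 and 14 bases before the start.
Oas1a: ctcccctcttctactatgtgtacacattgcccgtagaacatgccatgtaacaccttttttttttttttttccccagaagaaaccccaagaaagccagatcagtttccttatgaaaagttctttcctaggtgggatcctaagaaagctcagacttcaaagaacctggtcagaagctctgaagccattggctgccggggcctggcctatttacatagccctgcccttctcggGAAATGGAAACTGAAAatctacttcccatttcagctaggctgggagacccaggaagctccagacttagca

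Genes of antigen presentation, many of them raised by interferons, followed in part: of 21 members 8 were called higher and 2 lower (median log2 fold change 0.46). Psme1, an activator of the immunoproteasome, had medians of 20.8 and 31.6 CPM (0.60 ± 0.08), Psmb8, one of its catalytic subunits, of 2.33 and 3.80 CPM (0.64 ± 0.13), and Tap1, a peptide transporter, of 2.85 and 4.38 CPM (0.58 ± 0.13). H2-T23, a nonclassical class I gene, fell (17.9 and 10.3 CPM; -0.74 ± 0.13) and was not called with the run tag (adjusted p = 0.0816); genes of this cluster resemble each other, so its counts are uncertain.

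**Figure D4:**
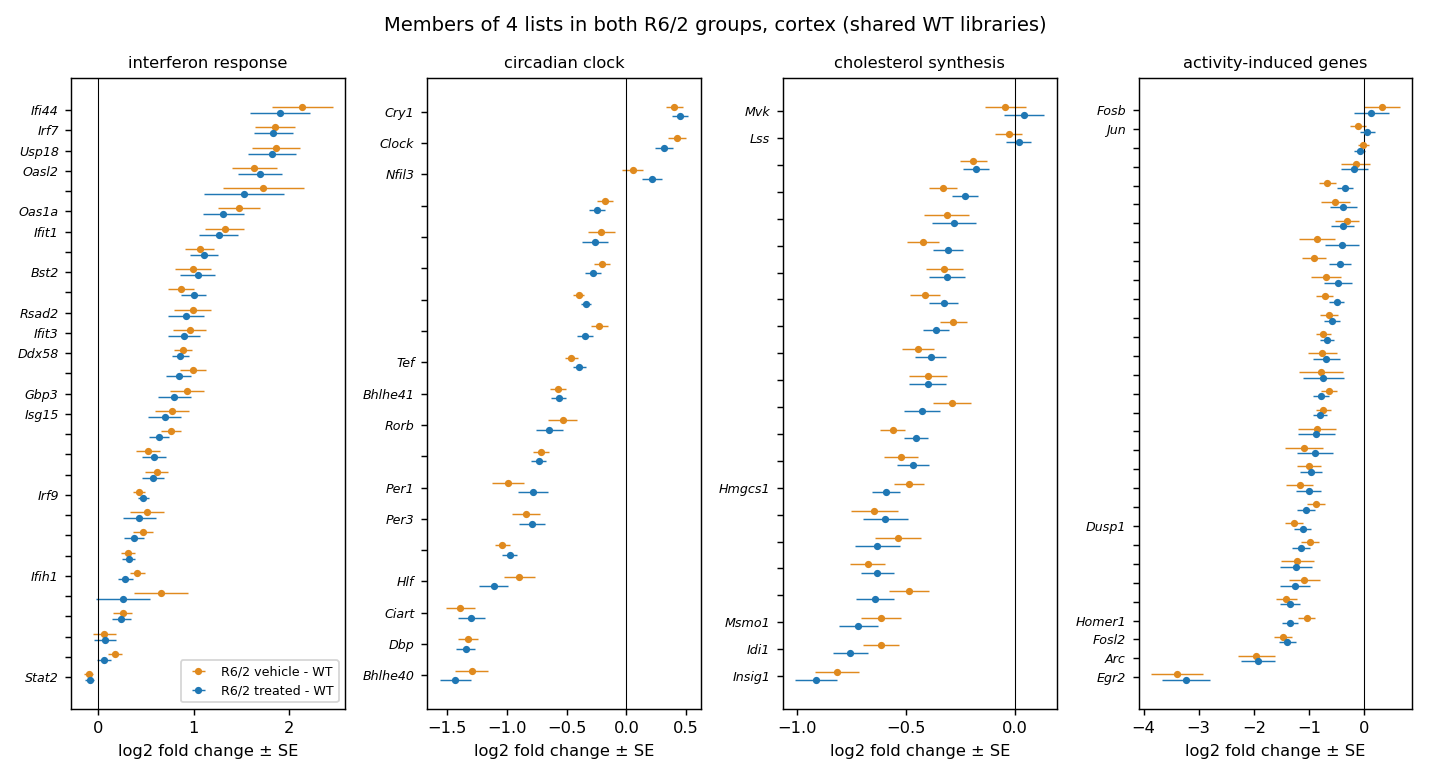
Log2 fold change ± SE of tested members of 4 lists in cortex, with names for those described in the text, vehicle R6/2 minus WT (orange) and treated R6/2 minus WT (blue), ordered by the treated value; both comparisons use the same WT libraries. Interferon response genes lie mostly to the right of 0 with 26 of 30 called higher, and clock, cholesterol synthesis and activity-induced genes mostly to the left.

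Every tested gene of the circadian clock was called, 16 of 19 lower and 3 higher, with a median log2 fold change of -0.57. The clock turns on a loop in which CLOCK and BMAL1 activate Per, Cry and output genes through E-box motifs, and PER and CRY proteins repress them. Dbp, an output factor that binds D-box motifs, had lowest, median and highest values of 59.6, 76.1 and 79.9 CPM in WT and of 21.5, 29.6 and 32.4 CPM in treated R6/2 (-1.35 ± 0.08, adjusted p = 5.62e-12). Bhlhe40, a repressor at E-boxes, had medians of 155 and 57.2 CPM (-1.43 ± 0.13), Ciart, a repressor of CLOCK and BMAL1, of 19.3 and 7.66 CPM (-1.30 ± 0.11), and Hlf, a relative of Dbp, of 319 and 142 CPM (-1.11 ± 0.12). The values of these 4 genes, named for the largest changes of the list, did not overlap between groups. Calls without overlap were made for 13 of the 19 members, beside 16.9% of all genes without overlap. The members called higher were Cry1, a repressor of the loop (medians 18.4 and 25.1 CPM; 0.45 ± 0.07), Clock itself (78.0 and 98.1 CPM; 0.31 ± 0.08) and Nfil3, which opposes Dbp at D-boxes (0.22 ± 0.09). The labels used here give no time of day at which tissue was taken.

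Promoter windows were available for 17 of the 19 clock genes. The E-box CACGTG was in those of 5 (Ciart, Per1, Bhlhe41, Cry1 and Tef), of which Cry1 was higher and the other 4 lower, beside 8.09% of genes with a window. The D-box TTANGTAA, on either strand, was in those of Per3 and Rorb, beside 2.72% of genes with a window. Ciart, with the largest change among the E-box genes, held 3 E-boxes in its window, chr3:95882179-95882478 on the minus strand, starting 116, 58 and 44 bases before the start. Per3, a period gene with medians of 81.2 and 44.9 CPM (log2 -0.79 ± 0.11), held 2 D-boxes in its window, chr4:151044616-151044915 on the minus strand, starting 205 and 158 bases before the start. Both are shown with these motifs in capitals.
Ciart: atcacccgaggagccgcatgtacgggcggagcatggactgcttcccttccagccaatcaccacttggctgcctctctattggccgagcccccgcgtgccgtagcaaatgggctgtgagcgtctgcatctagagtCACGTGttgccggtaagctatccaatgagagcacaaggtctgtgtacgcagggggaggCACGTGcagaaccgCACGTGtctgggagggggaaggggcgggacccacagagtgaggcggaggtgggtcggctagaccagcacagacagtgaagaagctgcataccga
Per3: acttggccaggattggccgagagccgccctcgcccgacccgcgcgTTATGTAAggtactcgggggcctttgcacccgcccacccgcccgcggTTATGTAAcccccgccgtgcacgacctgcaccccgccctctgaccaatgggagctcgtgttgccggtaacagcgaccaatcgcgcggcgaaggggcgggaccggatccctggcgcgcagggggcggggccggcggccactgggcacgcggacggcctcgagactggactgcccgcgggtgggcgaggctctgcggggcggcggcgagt

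Cholesterol synthesis genes were lower as a group. Neurons and astrocytes make their own cholesterol, under the factor SREBP2, which binds sterol regulatory elements and is held back by Insig1. Of 24 members 22 were called lower and none higher, with a median log2 fold change of -0.41. Insig1, itself a target of SREBP2, had lowest, median and highest values of 72.0, 81.3 and 93.8 CPM in WT and of 30.7, 46.2 and 55.2 CPM in treated R6/2 (-0.91 ± 0.10, adjusted p = 6.36e-08). Idi1, an isomerase of the pathway, had medians of 64.5 and 38.03 CPM (-0.76 ± 0.08), and Msmo1, a sterol oxidase, of 95.0 and 55.3 CPM (-0.72 ± 0.09). Treated values of these 3 genes, among those of the largest changes of the list, all lay below the WT values. Of the 24 members 12 were called without overlap, beside 16.9% of all genes without overlap. Mvk and Lss were the members not called.

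Of 15 called members with a promoter window, 1 held the sterol regulatory element TCACNCCAC on either strand, Hmgcs1, beside 1.44% of genes with a window. Hmgcs1, an early enzyme of the pathway, had a median of 323 CPM in WT (289 to 349) and 211 CPM in treated R6/2 (164 to 254; log2 -0.59 ± 0.07, adjusted p = 1.34e-07). Its window, chr13:119690101-119690400 on the plus strand, is shown with the motif in capitals, starting 137 bases before the start.
Hmgcs1: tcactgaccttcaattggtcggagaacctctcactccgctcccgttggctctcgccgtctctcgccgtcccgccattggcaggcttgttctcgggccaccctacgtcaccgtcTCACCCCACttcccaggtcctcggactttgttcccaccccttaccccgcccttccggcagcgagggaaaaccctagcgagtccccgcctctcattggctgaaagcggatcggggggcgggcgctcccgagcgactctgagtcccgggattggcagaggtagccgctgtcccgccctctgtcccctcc

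Astrocyte genes fell almost throughout, with 17 of 18 called lower, none higher and a median log2 fold change of -0.67; in 15 of the 17 the groups did not overlap, beside 2962 of the 8164 genes called in all. Glul, glutamine synthetase, had lowest, median and highest values of 1770, 1907 and 2186 CPM in WT and of 754, 996 and 1137 CPM in treated R6/2 (-0.997 ± 0.09, adjusted p = 3.28e-09). Hapln1, which links the matrix of perineuronal nets and is also made by neurons, had medians of 29.3 and 13.3 CPM (-1.12 ± 0.07), and S1pr1, a lipid receptor, of 179 and 94.2 CPM (-0.94 ± 0.07). Gja1, the astrocytic gap junction protein, fell from 223 to 132 CPM (-0.77 ± 0.05), and Aqp4, the water channel, fell with overlap (-0.30 ± 0.12). Of 20 genes of reactive astrocytes 5 were called higher and 2 lower (median 0.12), near or under the shares among all genes (22.8% higher and 23.9% lower). Among them were Serpina3n, a protease inhibitor, higher (medians 15.5 and 27.2 CPM; 0.66 ± 0.23) and Aspg lower (-0.77 ± 0.25). Once the run tag was in the fit, neither Serpina3n nor Aspg was called (adjusted p = 0.614 and 0.837).

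Most myelin genes were lower in treated R6/2 than in WT. Of 20 members 15 were called lower and none higher, with a median log2 fold change of -0.61 in treated and -0.33 in vehicle R6/2. Fa2h, which hydroxylates myelin lipids, ran from 29.8 to 43.6 CPM in WT (median 35.8), from 17.9 to 32.7 CPM in vehicle R6/2 and from 14.7 to 24.4 CPM in treated R6/2 (median 19.3; treated minus WT -0.89 ± 0.12, adjusted p = 1.39e-06). Mal had medians of 228 and 117 CPM (-0.89 ± 0.14) and Cldn11, a tight junction protein of myelin, of 120 and 67.0 CPM (-0.85 ± 0.13). In the direct contrast of treated with vehicle R6/2, 14 of the 20 members had an unadjusted p under 0.05, all lower. Over all 17484 genes 1015 had such a p, and no gene passed the adjustment. How far the members vary together was not tested, so the 14 cannot be counted as separate results. The summed level of the list ran from 5390 to 8530 CPM in WT, from 3750 to 6900 CPM in vehicle and from 2920 to 5360 CPM in treated R6/2. Of 11 genes of oligodendrocyte precursors 2 were lower and 1 higher (median -0.05), under the shares among all genes (23.9% lower and 22.8% higher). On the FPKM values none of the 11 was lower and 3 were higher.

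Microglial genes changed in part. Of 22 members 9 were called lower and 1 higher (median -0.21). No called member was free of overlap, beside 2962 of the 8164 genes called in all that were. Fcrls had medians of 20.6 and 13.6 CPM (log2 -0.63 ± 0.19) and P2ry13, a purine receptor, of 13.8 and 10.99 CPM (-0.34 ± 0.08). Fcrls was not called with the run tag (adjusted p = 0.177) or without treated females 1, 3 and 4 (-0.34, adjusted p = 0.17). The microglial count depended on the fit. Without treated females 1, 3 and 4, a choice made after seeing the data, 2 were called lower, as on the FPKM values of all libraries. With the run tag as a covariate 8 were called lower. Leaving out libraries also lowers the power to call a gene, and the part of these 3 libraries in the count was not tested. Of 20 genes of endothelium and pericytes 4 were lower and none higher (median -0.15), beside 23.9% of all genes called lower. Without those 3 libraries 8 were lower, and none was when the run tag was added to the fit. No gene of 14 from choroid plexus and ependyma was called by edgeR's quasi-likelihood test over all libraries. In other fits 1 was lower on the FPKM values, 1 was higher with the run tag and 1 without treated females 1, 3 and 4, and 2 were higher without treated female 3. Genes of red blood cells were lower: 4 of 5 tested members were called lower (median -0.99), and the member not called was at -0.55. Among those called were Hbb-bs, a globin (medians 57.8 and 33.6 CPM, log2 -0.89 ± 0.13), and Alas2, which makes haem (1.95 and 1.06 CPM, log2 -0.99 ± 0.16). The summed level of the 8 listed blood genes ran from 98.9 to 193 CPM in WT and from 60.8 to 96.0 CPM in treated R6/2.

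Tissue next to the cortex could be taken with it. Of 12 striatal genes 5 were called lower and none higher (median -0.29), among them Ppp1r1b, the phosphatase inhibitor DARPP-32, which cortex also makes (95.2 and 32.4 CPM; -1.44 ± 0.25), and Penk, the precursor of enkephalin (32.7 and 15.5 CPM; -0.97 ± 0.39, adjusted p = 0.0471). The call of Penk was lost on leaving out any one of 12 of the 16 libraries, all but treated males 1 and 3, WT male 3 and WT female 3. Drd1 and Drd2, dopamine receptors that mark striatal cells, were not called and had medians of 11.8 and 0.786 CPM in WT and of 11.4 and 0.911 CPM in treated R6/2. The summed level of the list ran from 303 to 432 CPM in WT and from 190 to 311 CPM in treated R6/2. With the run tag as a covariate none of the 12 was called. Of 14 tested genes of other neighbouring tissue 2 were called lower and 1 higher (median -0.07), beside 23.9% lower and 22.8% higher among all genes. The higher one was Tdo2, also a gene of the kynurenine pathway, and the part of neighbouring tissue in its rise was not tested. Pituitary hormone genes summed to 167 CPM in WT female 4, to 35.0 CPM in treated female 2 and to 14.8 CPM in treated male 2, and to at most 5.01 CPM elsewhere; their part in other results was not tested.

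The pathway that the compound acts on was measured in part. Kynurenine arises from tryptophan through IDO1, IDO2 and TDO2, and later steps lead to NAD. Of 29 genes of kynurenine and NAD metabolism 23 were tested, with a median log2 fold change of 0.00. Among the 23, 5 were called higher and 10 lower, beside 22.8% of all genes called higher and 23.9% called lower. The balance depended on the fit, with 9 higher and 5 lower on the FPKM values and, once the run tag was added, 4 higher and 3 lower. Kmo, Kynu and Haao, which act in turn from kynurenine to quinolinate, had too few counts to be tested. Afmid, which releases kynurenine from its formyl form, rose: its lowest, median and highest values were 1.57, 1.96 and 2.42 CPM in WT and 3.68, 4.83 and 6.62 CPM in treated R6/2 (1.26 ± 0.13, adjusted p = 2.79e-08). Ido2 fell from a median of 2.29 to 1.34 CPM (-0.82 ± 0.14), and Ido1, at a median of 0.425 CPM in WT, to 0.107 CPM (-1.69 ± 0.38). Tdo2 rose from 0.764 to 1.29 CPM (0.71 ± 0.18; not called with the run tag, adjusted p = 0.164), and Kyat3, which makes kynurenic acid, fell from 5.57 to 3.70 CPM (-0.50 ± 0.11). Of the NAD genes, Nnmt had the largest change, from 0.320 CPM (0.143 to 0.507) to 1.56 CPM (0.755 to 2.92; 2.39 ± 0.32), and Sirt3, a mitochondrial deacylase, fell by 0.28. In vehicle R6/2 minus WT the values were 1.03 for Afmid, -0.78 for Ido2, -1.98 for Ido1, 0.86 for Tdo2, -0.41 for Kyat3 and 2.11 for Nnmt, and none of the 6 differed between treated and vehicle R6/2 after adjustment.

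Stress pathways showed no common direction. Their counts stand beside 22.8% of all genes called higher and 23.9% called lower. Of 26 genes of heat shock and chaperones 7 were higher and 5 lower (median 0.08), and the largest changes were falls, in Hspa1b, an inducible heat shock protein (medians 6.29 and 2.96 CPM; -1.16 ± 0.26), and in Cryab (87.9 and 54.8 CPM; -0.63 ± 0.10); with the run tag as a covariate 1 was higher and 4 lower. Of 26 respiratory chain genes 4 were higher and 7 lower (median -0.06), a balance that turned to 7 higher and 2 lower on the FPKM values, to 5 and 4 without treated female 1 and to 6 and 3 without treated females 1, 3 and 4. Without treated female 4 there were 4 in each direction, and without treated male 4 there were 3 higher and 10 lower. Cox6a2, the muscle form of a cytochrome oxidase subunit that interneurons also use, fell from 4.26 to 1.204 CPM (-2.07 ± 0.19), and Sdha, of complex II, rose from 396 to 456 CPM (0.22 ± 0.04). Of 23 oxidative stress genes 7 were higher and 7 lower (median 0.01), with Gstm1, a glutathione transferase, lower (164 and 101 CPM; -0.65 ± 0.06). Of 15 genes of the integrated stress response 4 were higher and 2 lower (median 0.05), 2 higher without WT female 2 or WT female 3, and Ddit3, the factor CHOP, was lower (22.3 and 17.5 CPM; -0.39 ± 0.08). Of 13 glucocorticoid targets 7 were lower and 1 higher (median -0.32), among them Mt2, a metallothionein (47.1 and 24.1 CPM; -0.78 ± 0.13). Of 15 p53 targets 6 were lower and 3 higher (median -0.09), with Ccng1 lower (119 and 78.0 CPM; -0.61 ± 0.07). Cdkn1a, the cell cycle inhibitor p21, was called lower at an adjusted p of 0.0401 (-0.82 ± 0.32), and that call was lost without any one of 9 libraries: WT males 1, 2, 3 and 4, treated males 1, 2 and 3 and treated females 2 and 3.

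The direct contrast of treated with vehicle R6/2 called no gene (0% of 17484) by edgeR's quasi-likelihood test, with a smallest adjusted p of 0.836 and 1015 genes at an unadjusted p under 0.05; DESeq2 and limma on the FPKM values also called none. The comparisons of the 2 R6/2 groups with WT share the WT libraries, so their values are given side by side. Pou4f1 was 5.26 ± 0.24 above WT in treated and 5.40 ± 0.24 in vehicle R6/2, Arr3 -5.31 ± 0.32 and -5.13 ± 0.34, Lamp5 -2.69 ± 0.17 and -2.49 ± 0.18, Irf7 1.84 ± 0.20 and 1.85 ± 0.21, and Dbp -1.35 ± 0.08 and -1.33 ± 0.08 on the log2 scale. A p that misses the threshold does not show that the groups are alike.

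Females and males were compared through the interaction of sex and group, and 1 gene was called (0.00572% of 17484), with 2777 at an unadjusted p under 0.05. Adcy9, an adenylyl cyclase, had values of 48.6, 52.2, 53.9 and 63.7 CPM in WT females and of 47.3, 49.1, 59.9 and 64.0 CPM in treated females. In males it had 67.6, 74.0, 74.2 and 78.1 CPM in WT and 35.4, 36.2, 39.8 and 39.9 CPM in treated animals. The female groups overlapped and the male groups did not, a difference of 0.97 ± 0.15 on the log2 scale (females 0.01, males -0.96, adjusted p = 0.0361). Of the 4 treated females, 3 lay at the negative end of principal component 3 and the 4 treated males at the positive end. Without those 3 females only 1 treated female is left, so the sex difference cannot be judged from that fit. The number of genes called depended on the fit, with 280 called from the 16 libraries of the 2 groups alone and 444 by DESeq2. The median sex difference ran from -0.15 in the fifth of genes with the fewest exon bases to 0.14 in the fifth with the most, and the part of transcript length in it was not tested.

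The striatum of the same 16 animals was compared through the interaction of tissue and group with the animal as a block, and 3328 of 17760 genes were called (18.7%), 1861 of them lower and 1467 higher in the striatal effect than in the cortical one. Onecut2 rose in the cortex (2.19) and was 0.11 in the striatum (difference -2.13 ± 0.17, adjusted p = 2.88e-07), and Lamp5 fell by more in the cortex (-2.69) than in the striatum (-0.41; difference 2.25 ± 0.22, adjusted p = 1.59e-06). Phf21b, a zinc finger protein, was lower in the cortex (-1.46) and 0.05 in the striatum (difference 1.49 ± 0.09, adjusted p = 1.39e-08). Ipcef1 fell in the cortex (-0.67) and rose in the striatum (1.23). Cnr1, the cannabinoid receptor, had the lower value in the striatum, with -0.16 in the cortex and -2.17 in the striatum (difference -2.03 ± 0.10, adjusted p = 1.16e-09). For other leading genes the tissues were not shown to differ: Irf7 had 1.84 in cortex and 1.63 in striatum, Dbp -1.35 and -1.46, Insig1 -0.91 and -1.01, Slc1a2 -0.97 and -1.03, and Scn4b -3.01 and -3.20. In the striatum, unlike the cortex, treated and WT libraries shared tags L1 to L4, and 1 treated library carried L5; the part of the tags in the tissue differences was not tested.

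Within vehicle R6/2 cortex, libraries with tags L5 and L6 were compared with those of L7 and L8 (3 against 4), the one direct measure of the tags; no gene was called (0% of 17193) by edgeR, 1593 had an unadjusted p under 0.05, and DESeq2 called 11. With the run tag as a covariate 113 of the 147 named genes stayed on the same side of the threshold in the same direction, 32 fell short of the threshold in the same direction and 2 changed sign, Cdkn1a and Penk. Lists whose count of lower members moved by over 1.5 times were potassium channels (29 to 18), neuropeptides (13 to 8), GABA receptors (8 to 4), cAMP signalling (20 to 13), kynurenine and NAD (10 to 3), respiratory chain (7 to 2), glucocorticoid targets (7 to 3), striatal tissue (5 to 0), endothelium and pericytes (4 to 0), other neighbouring tissue (2 to 1), and reactive astrocytes, antigen presentation and oligodendrocyte precursors (each 2 to 0). Counts of higher members moved from 11 to 4 for polycomb, 7 to 1 for heat shock, 7 to 3 for oxidative stress, 4 to 1 for the integrated stress response and for the respiratory chain, 5 to 3 for reactive astrocytes, 3 to 0 for p53 targets, 3 to 1 for glutamate receptors, 2 to 0 for presynaptic release, 0 to 1 for choroid plexus, and 1 to 0 for projection neurons, microglia, oligodendrocyte precursors and other neighbouring tissue. The log2 fold changes of leading genes with the run tag were 5.29 for Pou4f1, 2.25 for Onecut2, -5.44 for Arr3, -2.90 for Lamp5, 1.99 for Irf7, -1.39 for Dbp and -0.92 for Slc1a2.

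**Figure D5:**
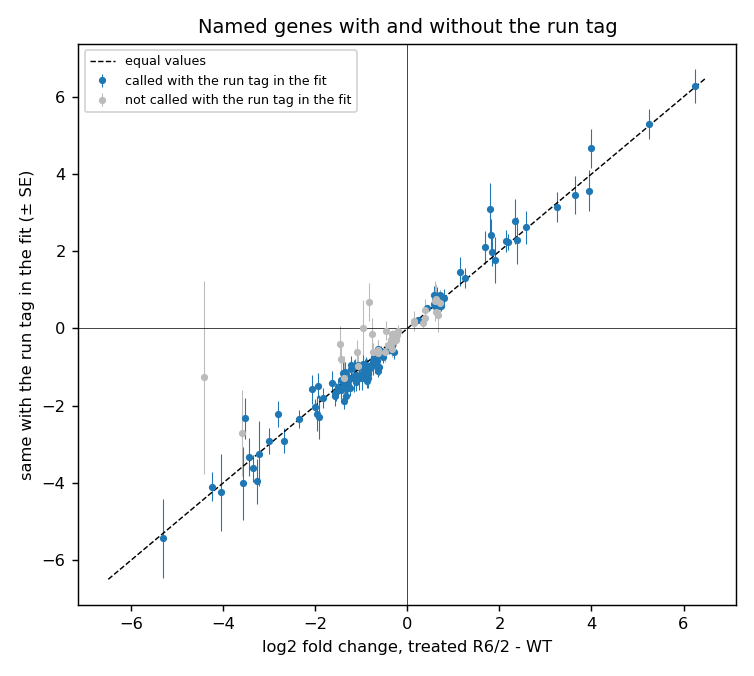
Log2 fold change of the 147 named genes, treated R6/2 minus WT, in the fit with sex as the only covariate (horizontal) and with the run tag added (vertical, ± SE); the dashed line marks equal values. Genes called in both fits lie along the line out to 6.27 for Gm12695, and grey points, not called with the run tag, lie mostly near 0, with Erfe at -4.42 and -1.27 the farthest from the line.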

How the data were processed

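Total RNA of 46 tissue samples from 23 mice was sequenced, and the 23 cortex libraries were used here, with the striatum of 16 animals for 1 comparison. The authors deposited a table of estimated counts and a table of FPKM values per gene; of the nonzero counts 33.8% were not whole (tolerance 1e-06). CASAVA 1.8.2 and build mm10 are named, per the submitters' processing notes; for the aligner, quantifier, annotation and strandedness the sources used here give nothing, so antisense and near-identical genes may share reads. Deposited counts were rounded and tested with edgeR 4.0.16 (R 4.3.3; quasi-likelihood test, TMM scaling, filterByExpr, group and sex as terms over 23 libraries, 19 residual degrees of freedom), with calls at p under 0.05 after Benjamini-Hochberg adjustment. SEs came from the log2 fold change and the F statistic (its absolute value over root F). The deposited FPKM values were tested as log2 with 0.1 added in limma 3.58.1, and DESeq2 1.42.0 was a further alternative; others changed the scaling, the filter, the covariates or the libraries. Scripts were tested on simulated data. Promoter sequences are from RefSeq on GRCm38.p6.

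Named genes are the 10 largest changes in each direction and the 5 most abundant at 1.5-fold or more, all without overlap between groups, up to 4 called members of each list with the largest change, and for each other comparison the called genes of smallest p. Genes needed a mean of at least 1 CPM in the higher group for the lists and the largest changes, and predicted gene models (Gm numbers, Rik names and bare identifiers) were left out of the largest and most abundant changes. Other members, chosen after their values were seen, are those named for their role or motif, among them Gad1, Slc32a1, Tbr1, Gja1, Aqp4, Ido1, Kyat3, Sirt3, Dusp1, Hmgcs1, Oas1a, Per3, Cry1, Clock, Nfil3, Stat2, Irf9, Onecut1, Drd1, Drd2, Fosb and Jun. Some genes that meet these rules are not reported here. The members and lists were chosen with earlier results of these data known.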

Additional observations from a re-analysis of the deposited data

Results flagged for a closer look

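Single libraries lay far from the rest of their group in 23 of 294 gene and group pairs examined, where chance gives about 1 in 20; 21 of them are given. In WT male 3, values were 31.3 CPM for Vip, 18.8 CPM for Sstr2, 41.2 CPM for Kcnh4, 19.98 CPM for Kcnk4 and 24.9 CPM for Shmt2. In WT female 4, values were 0.229 CPM for Shox2, 18.3 CPM for Egr2, 48.8 CPM for Fosl2, 2.40 CPM for Aspg and 3.20 CPM for Ido2. In WT female 2, values were 34.1 CPM for Plk5, 0.474 CPM for Cd109, 2.18 CPM for Usp18 and 72.1 CPM for Penk, and in WT female 3 Twist1 was at 0.656 CPM. In treated females, Grm4 was at 20.6 CPM in female 1, Gpr6 at 1.16 CPM in female 2, Per1 at 92.8 CPM in female 3, and Usp48 at 311 CPM and Ppp1r1b at 103 CPM in female 4. Gabrq was at 8.70 CPM in treated male 1.

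The change of Adcy9 differed between the sexes by 0.97 on the log2 scale (0.972 before rounding), in edgeR's test of the interaction. The change differed between striatum and cortex, by the same kind of test, for Phf21b by 1.49, Pak1 by 0.953, Ipcef1 by 1.87, Nlk by 0.816 and Serpini1 by 1.09, the striatal value being the higher one. For Cnr1 the difference was -2.03, for Acly -0.712, for Lrrtm1 -1.14, for Pde1c -0.991 and for Socs2 -1.02, the striatal value being the lower one.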

How the results depend on the processing

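The number of genes that differed between treated R6/2 and WT cortex was 8164, and it was between 7723 and 8162 when each library was left out in turn. It was 4062 with the run tag as a covariate, which has few vehicle libraries per tag; Cdkn1a and Penk then changed sign, to 0.684 (adjusted p = 0.34) and 0.022 (adjusted p = 0.987), and the cause was not tested. Without treated females 1, 3 and 4, chosen after seeing the data, 7770 genes were called. With the replicate number as a block 7861 genes were called; same-numbered libraries did not deviate together (8 pairs, correlations from -0.194 to 0.0618), so the numbers do not pair the animals. The sex difference called 1 gene, 280 from the 16 libraries alone, 444 by DESeq2 and 2 without the filter. The run tags within vehicle R6/2 called 0 genes by edgeR and 11 by DESeq2. All 147 named genes kept direction and call under DESeq2, RLE and upper quartile scaling and from the 16 libraries alone. Of them, 138 did so on log2 FPKM values with 0.1 added. Calls of Penk (for any of 12 of the 16 libraries), Cdkn1a (for any of 9), Pecam1, Trem2, Olig2, Slc7a3 and Sox6 were lost on leaving out a single library. Genes under about 1 CPM rest on few counts.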
